A study of Mus musculus with 36 samples.

Results

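The genes described here are the ligands and receptors of the 4 classical axon guidance families. They were chosen by gene symbol alone from the protein-coding genes of the mouse GRCm38 annotation, and 71 of 21887 genes carried a matching symbol. These are 20 semaphorin ligands (Sema3 to Sema7), 11 semaphorin receptors (plexins and neuropilins), 8 ephrin ligands, 14 Eph receptors, 3 Slit ligands, 4 Robo receptors, 6 netrin ligands and 5 netrin receptors (Dcc and Unc5a to Unc5d). The rule for membership uses no measured value, although it was written with earlier results of these data known.

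Guidance cues steer growing axons and remain in use in the adult brain. Semaphorins are secreted or membrane-bound and signal through plexins, with neuropilins as the binding partner for the secreted class 3 members; ephrins are tethered to the membrane and activate the Eph receptor tyrosine kinases on a neighbouring cell. Slits are large secreted proteins that repel axons through Robo receptors, whereas netrins attract through Dcc and repel through the Unc5 receptors. In the hippocampus these systems are known for the layout of the mossy fibre and entorhinal inputs and, later, for the shape and number of dendritic spines.

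Both measurements are chromatin immunoprecipitation followed by sequencing (ChIP-seq) of an acetylated lysine of histone H3. H3K9ac marks the promoters of active genes, and H3K27ac marks active promoters and enhancers. The design asks how an intraperitoneal ethanol injection alters these marks in the dorsal hippocampus, and whether the change needs ACSS2, the enzyme that turns acetate into acetyl-CoA. Male mice aged to 8 weeks were used, and about 20 mg of dorsal hippocampus was taken per mouse. The 4 conditions were control vector without treatment, control vector with ethanol (2 g/kg, as a 20% solution), ACSS2 shRNA without treatment and ACSS2 shRNA with ethanol. In all of them a vector was injected into the brain. The knockdown vector was AAV2/9 with the U6 promoter driving the shRNA and CMV driving EGFP, so neither promoter restricts it to one cell type. The labels do not describe the control vector further. The untreated mice are not described as having received saline.

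For each mark and condition 1 peak list stands for 3 replicates, so 8 lists were compared and no value below has a replicate error. Differences between conditions therefore have no test and no p-value; for each comparison the same counts over all protein-coding genes are given beside those of guidance genes. The H3K9ac lists held between 31042 peaks (control, ethanol) and 42120 peaks (knockdown, ethanol), and the H3K27ac lists between 86110 (control, ethanol) and 119317 (knockdown, ethanol). The lists are used at their full length unless stated. Covered bases, the measure used throughout, count every base that lies inside a peak and no more than 2 kb from one of the gene ends, inside or outside the gene. Values of 4 lists are always given in the order control untreated, control ethanol, knockdown untreated, knockdown ethanol. Acss2 itself had 1582, 981, 996 and 1156 bases covered by H3K9ac, which does not check the knockdown, since an shRNA acts on the RNA.

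The 7 promoters printed here are examples, taken from RefSeq on GRCm38.p6. Each runs from 250 bases before to 50 after a listed transcription start, 5′ to 3′ on the strand of the gene, with CpG dinucleotides in capitals. The results at gene ends were counted over wider windows. Within 500 bp of the Slit3 start 713, 708, 773 and 847 H3K9ac bases were covered, and the Robo1 start lies 635631 bp inside its gene model. Slit3 (chr11:35121206-35121505, plus strand) and Robo3 (chr9:37433126-37433425, minus strand) are the guidance genes with the largest differences in H3K9ac at gene ends between 2 lists. Slit2 (chr5:47982905-47983204, plus strand) and Robo1 (chr16:72662899-72663198, plus strand) are the other genes of these families with H3K9ac at an end in every list. The 3 starts of Robo2 (minus strand, chr16:75447244-75447543, chr16:75092721-75093020 and chr16:74411776-74412075) are added because acetylation differed between them; this set was chosen after the values were seen.
Slit3: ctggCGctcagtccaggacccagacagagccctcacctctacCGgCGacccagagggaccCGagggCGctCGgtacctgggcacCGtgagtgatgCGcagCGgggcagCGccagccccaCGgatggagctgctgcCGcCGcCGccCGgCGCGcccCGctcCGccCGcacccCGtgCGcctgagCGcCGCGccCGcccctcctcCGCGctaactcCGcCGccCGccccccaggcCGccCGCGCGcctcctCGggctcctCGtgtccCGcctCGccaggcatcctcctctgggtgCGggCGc
Slit2: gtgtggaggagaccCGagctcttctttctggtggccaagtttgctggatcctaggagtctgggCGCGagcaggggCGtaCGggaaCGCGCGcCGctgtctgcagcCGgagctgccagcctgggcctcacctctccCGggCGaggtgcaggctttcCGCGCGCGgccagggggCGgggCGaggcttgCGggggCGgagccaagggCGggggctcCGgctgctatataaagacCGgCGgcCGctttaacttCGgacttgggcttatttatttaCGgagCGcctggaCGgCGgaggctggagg
Robo3: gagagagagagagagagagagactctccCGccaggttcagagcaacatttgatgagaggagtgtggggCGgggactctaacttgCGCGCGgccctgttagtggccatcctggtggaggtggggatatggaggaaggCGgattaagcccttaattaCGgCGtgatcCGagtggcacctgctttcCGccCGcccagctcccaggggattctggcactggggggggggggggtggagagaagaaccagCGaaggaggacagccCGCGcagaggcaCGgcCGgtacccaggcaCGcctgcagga
Robo1: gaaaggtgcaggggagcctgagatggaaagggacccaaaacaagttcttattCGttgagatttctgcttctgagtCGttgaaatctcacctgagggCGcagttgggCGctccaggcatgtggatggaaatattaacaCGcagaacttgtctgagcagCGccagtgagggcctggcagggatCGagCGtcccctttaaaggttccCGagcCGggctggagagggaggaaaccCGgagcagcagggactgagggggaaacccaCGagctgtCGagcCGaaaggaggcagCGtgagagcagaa
Robo2, outer start: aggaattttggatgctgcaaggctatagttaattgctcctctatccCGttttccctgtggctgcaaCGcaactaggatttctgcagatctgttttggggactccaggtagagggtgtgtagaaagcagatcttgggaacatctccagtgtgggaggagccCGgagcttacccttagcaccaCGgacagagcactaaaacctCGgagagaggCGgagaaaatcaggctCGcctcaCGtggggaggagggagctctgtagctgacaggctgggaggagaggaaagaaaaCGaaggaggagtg
Robo2, middle start: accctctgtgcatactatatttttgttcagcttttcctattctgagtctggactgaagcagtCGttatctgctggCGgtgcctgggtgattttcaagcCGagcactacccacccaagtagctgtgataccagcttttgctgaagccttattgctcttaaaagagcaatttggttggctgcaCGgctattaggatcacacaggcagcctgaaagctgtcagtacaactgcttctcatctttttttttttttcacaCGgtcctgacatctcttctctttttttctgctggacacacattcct
Robo2, inner start: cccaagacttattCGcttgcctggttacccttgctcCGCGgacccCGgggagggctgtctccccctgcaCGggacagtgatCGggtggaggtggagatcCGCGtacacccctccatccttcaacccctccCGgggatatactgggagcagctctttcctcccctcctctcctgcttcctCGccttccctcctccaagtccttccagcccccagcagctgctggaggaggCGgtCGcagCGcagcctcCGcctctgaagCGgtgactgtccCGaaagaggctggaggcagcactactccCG

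The Slit3 window holds 41 CpG and is 78.3% G or C, and the Slit2 window 30 CpG and 68.0%. Robo3 has 17 CpG and Robo1 15. Of the Robo2 starts, the inner one has 17 CpG, the outer one 9 and the middle one 5. H3K9ac covered 169, 151, 300 and 300 bases of the 300-base Slit3 window, and 46, 0, 150 and 215 of the Robo3 window. The Slit2 window was covered for 300, 99, 193 and 200 bases and the Robo1 window for 300, 201, 271 and 300. Of these 4 windows, that of Robo3 alone had none in a list, the control ethanol one. The inner Robo2 window was covered for 300 bases in every list and the middle one for 300, 0, 300 and 300. The outer Robo2 window was covered for 0, 0, 199 and 0 bases.

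Most guidance genes were acetylated at a gene end in the hippocampus. H3K27ac peaks were present at an end of 64 of the 71 genes in all 4 lists (90.1%, against 61.9% of all protein-coding genes), and H3K9ac peaks at 53 (74.6%, against 56.1%). This was not particular to guidance genes. List by list, 61, 55, 64 and 62 of the 71 had an H3K9ac end peak. Among 58 partners of guidance receptors, described further below, 54, 54, 56 and 56 had one. For H3K27ac the counts were 67, 68, 67 and 67 of the 71, and 56 of the 58 in every list. Guidance genes are long, with a median of 53374 bp against 17169 bp. In the untreated control list the median over the 71 genes was 1188 bases for H3K9ac, from 0 in 10 genes to 3871 in Nrp1, and 1381 for H3K27ac, from 0 in 4 genes to 4553 in Efnb3. Nrp1, the neuropilin that binds Sema3a and VEGF, also had 2944, 3725 and 3628 bases in the other lists. Efna1, an ephrin-A ligand, came next with 3554, 2849, 2797 and 4004 H3K9ac bases, although its windows also hold Slc50a1. The Efnb3 windows hold Wrap53. In all, 23 of the 71 genes have another protein-coding gene inside their windows, and their values cannot be split between the genes. Neighbours are not named at every mention below. For example, Gnat1 lies inside the Sema3f windows, Gm40415 inside those of Plxna1 and Cep83 inside those of Plxnc1. Epha10 and Sema4c also have neighbours inside their windows.

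**Figure D1:**
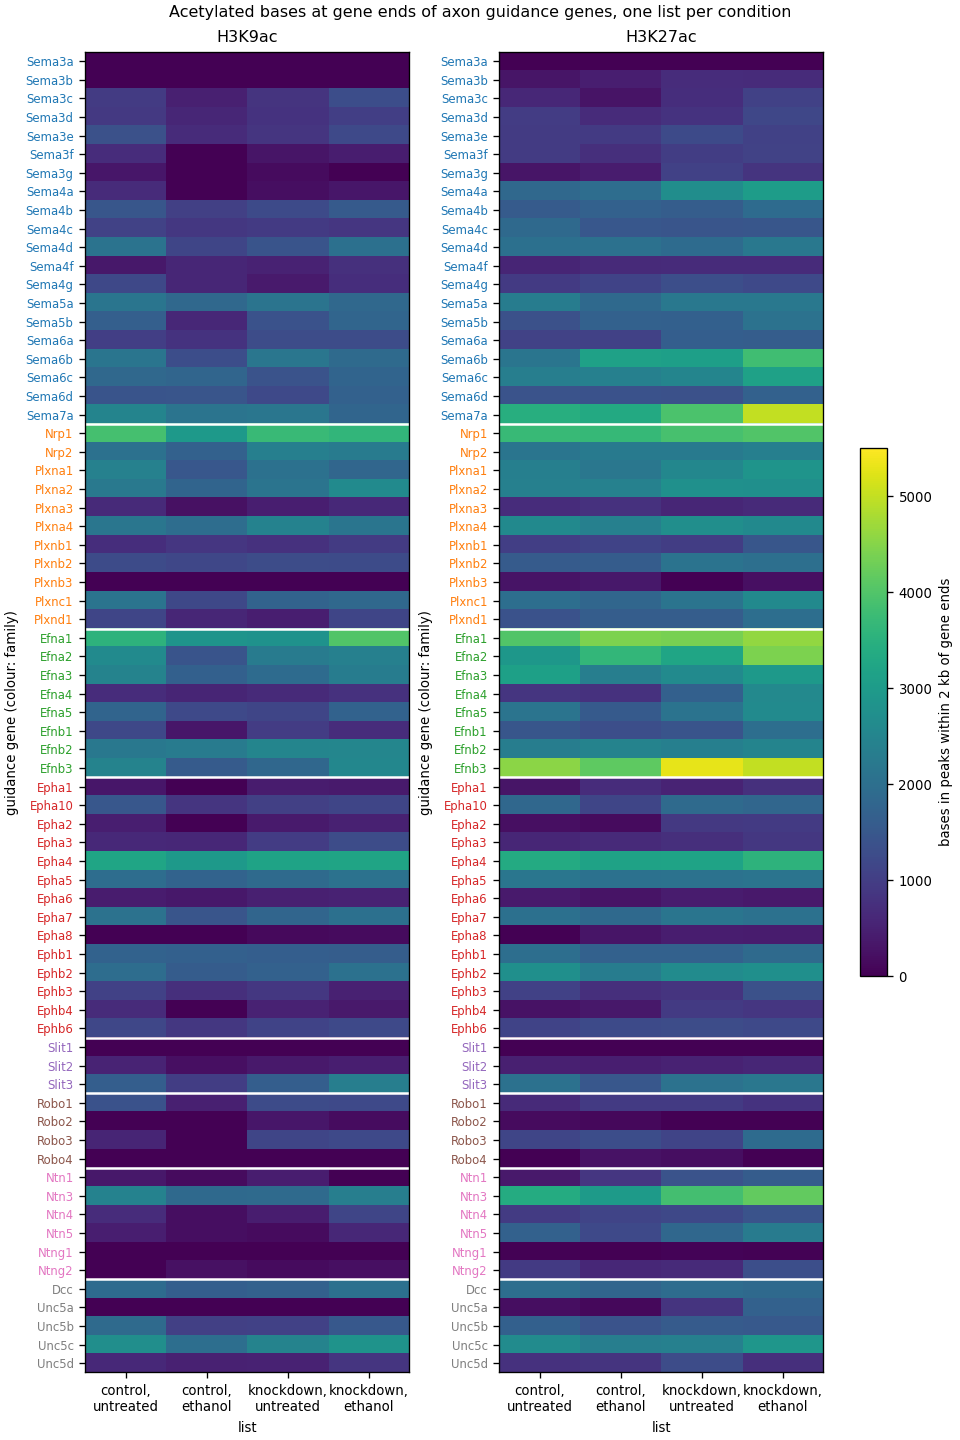
Bases inside H3K9ac (left) and H3K27ac (right) peaks within 2 kb of the gene ends for the 71 guidance genes (rows, coloured and ordered by family) in the 4 lists (columns), 1 list per condition. The control ethanol column of H3K9ac is darker than its neighbours in most rows, with a median of 734 bases against 1188 in untreated control mice, and Slit1 and Sema3a are at 0 for both marks.

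Among ligands, Sema7a, the membrane-anchored semaphorin, had 2484, 2117, 2154 and 1802 H3K9ac bases, and Efna2, an ephrin-A ligand, had 2625, 1431, 2291 and 2385. Ntn3 had 2432, 1871, 1891 and 2359, with Tbc1d24 inside its windows. Slit3 had 1646, 1009, 1649 and 2347. Among receptors, Epha4, which binds both ephrin classes, held 3226, 2969, 3185 and 3219, the least varied of the highly covered genes shown here. Unc5c, a repulsive netrin receptor, had 2715, 1990, 2455 and 2824, and Dcc had 1913, 1641, 1718 and 2020. Among the Robos, Robo1 had 1388, 479, 1262 and 1210 and Robo3 580, 0, 1159 and 1214, fewer than Slit3 and the other genes of this paragraph in every list.

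No H3K9ac peak lay at either end in any list in 7 genes, namely Sema3a, Sema3b, Slit1, Ntng1, Unc5a, Plxnb3 and Robo4. For 4 of them H3K9ac lay further inside the gene model in every list. Slit1 held it at chr19:41741960-41743766, its midpoint 4412 bp from the nearest end, with 1342, 941, 1764 and 1636 bases of the region covered. Ntng1, a membrane-anchored netrin-like ligand, held it at chr3:110141930-110144075, its midpoint 6970 bp from the end, with 1828, 1291, 1423 and 2006 bases. The listed start of Ntng1 lies 6500 bp inside the model. Unc5a held it at chr13:54950199-54951767 with 1206, 294, 1328 and 1452 bases, next to a listed start 4260 bp inside. Sema3a, the secreted repellent read by Nrp1, held 1 region at chr5:13399158-13399932, deep inside its gene, with 775, 426, 613 and 748 bases. In all 4 of these regions, each the widest of its gene found in every list, the control ethanol list covered the fewest bases. Within 500 bp of the listed start the untreated knockdown list covered the fewest in Ntng1 (897, 774, 731 and 1000 bases) and Unc5a (822, 698, 652 and 756). No such count was made over all genes. Plxnb3 had no H3K9ac peak anywhere in the gene, and Robo4, the Robo of endothelial cells, had 1 inner region found in 2 lists. Sema3b had 1 in 3 lists, all but control ethanol. For H3K27ac, Sema3a and Slit1 were without an end peak in every list.

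Listed starts were available for 61 of the 71 genes, 77 starts in all. Within 500 bp of the start, 55 of the 77 held H3K9ac in all 4 lists, 12 in some and 10 in none, that is 71.4%, 15.6% and 13.0%, against 54.5%, 6.73% and 38.8% of 21263 listed starts of all genes. The 55 starts had a median of 24 CpG per 300 bases and 67.0% G or C, and the 10 without H3K9ac 3.5 CpG and 55.1%. Over all listed starts the corresponding medians were 22 and 3 CpG. The GC box (GGGCGG, either strand) was found in 78.2% of the 55 starts and 30.0% of the 10, against 69.1% and 13.6% of the corresponding starts of all genes and 46.2% of all starts. A TATA box (TATAAA, either strand) was found in 2 of the 77 windows, against 12.6% of all starts, and 1 of these is Slit2. The E-box (CANNTG, which reads the same on both strands) was in 50.6% of guidance gene starts and 69.0% of all. The short form of the cAMP response element (TGACG, either strand) was in 13.0% and 23.6%. These are letter matches only, and GC boxes and CpG share letters.

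Robo2, a Slit receptor whose gene model spans 1555468 bp, held H3K9ac at its 3 starts in different lists. At the inner start, 1035618 bp from the outer end, 930, 585, 1000 and 982 bases within 500 bp on either side were covered, and at the middle start 1000, 245, 914 and 852. The outer start had 0, 0, 323 and 180. So within 500 bp the 2 inner starts had covered bases in every list and the outer start in the 2 knockdown lists only. In the narrower printed windows the middle start had none in control ethanol, and the outer start had some only in untreated knockdown. H3K27ac within 500 bp of the outer start ran the other way with 171, 128, 0 and 0 bases. These outer regions were small, and no replicate supports them. The listed start of Robo1 lies 635631 bp inside its model and was covered for 755, 584, 721 and 751 bases. Sema4a, a semaphorin with roles in immune cells and retina, also differed by start. Its start at the outer end had no H3K9ac in any list, while the starts 2081 and 2298 bp inside each had 544, 0, 189 and 183 bases. Epha6 was covered at a start 5380 bp inside its model, with 812, 373, 920 and 1000 bases.

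Away from the ends, guidance genes held 137, 73, 140 and 152 H3K9ac peaks and 544, 458, 629 and 822 H3K27ac peaks. Per 100 kb of gene this was 4.0, 3.37, 4.63 and 6.05 H3K27ac peaks, against 4.53, 4.25, 5.24 and 6.4 over all protein-coding genes. Of the 1052 merged H3K27ac regions inside guidance genes, 173 were found in all 4 lists and 562 in a single list, 277 of those in the longest list (knockdown, ethanol). H3K9ac peaks overlapped 14.2% of these inner H3K27ac regions, against 57.1% of the 191 at gene ends. Conversely, H3K27ac overlapped 91.5% of the 212 inner H3K9ac regions and 95.2% of the 126 at ends. Merged regions were not counted over all genes, so these shares cannot be read as particular to guidance genes.

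**Figure D2:**
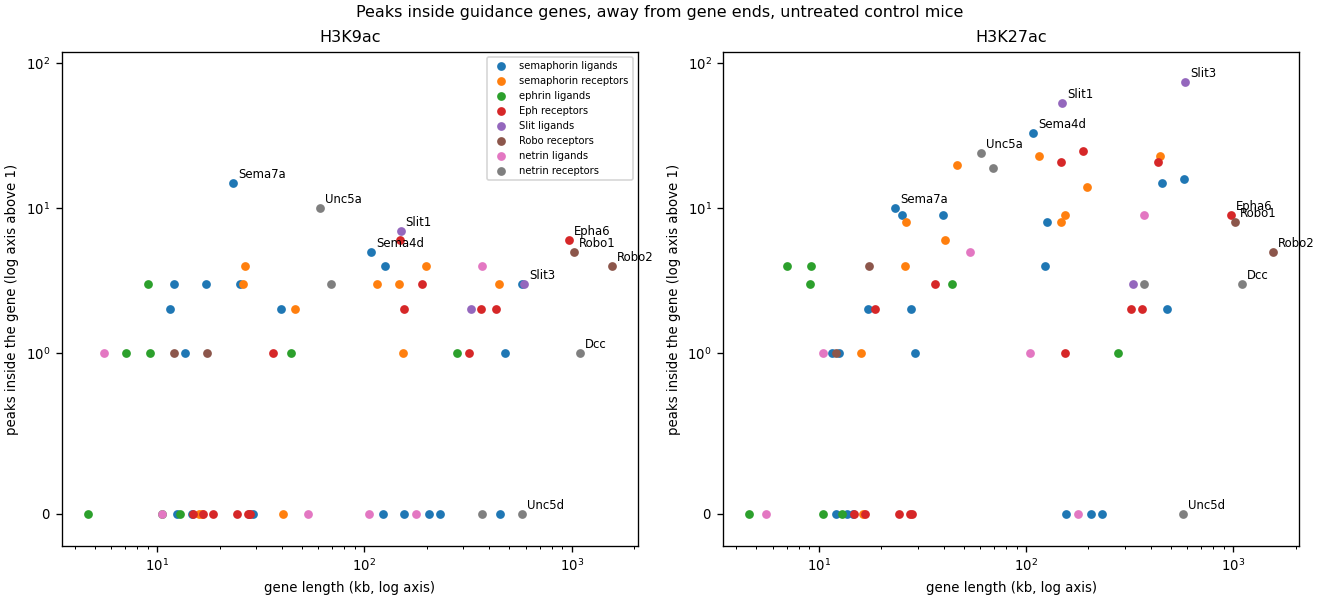
Number of peaks inside each guidance gene, away from its ends, against gene length in untreated control mice (left H3K9ac, right H3K27ac; points coloured by family; both axes logarithmic, the vertical one above 1). Slit3 (75 H3K27ac peaks) and Slit1 (53) lie at the top, and Robo1 (8), Robo2 (5) and Dcc (3), all longer, lie far below.

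The inner peaks were concentrated in a few genes. Slit3 held 75, 48, 92 and 133 H3K27ac peaks, 12.8, 8.18, 15.7 and 22.7 per 100 kb, in 165 merged regions of which 26 were in all 4 lists. Slit1 held 53, 48, 56 and 65 peaks, 35.5 per 100 kb in untreated control mice, and 21 of its 68 regions were in all 4 lists. In the untreated control list Slit1 ranked 51 and Slit3 290 by density among 2429 protein-coding genes of at least 100 kb, whose median was 1.49 per 100 kb. Slit2, the third Slit, had 3 inner peaks in that list and ranked 1417. The 3 Slits thus ranged from dense to below the median of long genes.

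Sema4d, a membrane-bound semaphorin of oligodendrocytes and other cells, held 33, 36, 35 and 43 inner H3K27ac peaks and ranked 66. Nrp2, the neuropilin for Sema3f, held 23, 23, 36 and 53, and Unc5a, 60868 bp long, held 24, 19, 33 and 38. Plxna4, the plexin partner of neuropilins for Sema3a, held 23, 5, 34 and 51, but only 1 of its 72 regions was in all 4 lists. The genes of over 1 Mb were sparse: Robo1 had 8, 1, 11 and 9 inner peaks, Robo2 5, 5, 8 and 9, and Dcc, the netrin receptor, 3, 4, 4 and 4. Sema3c, Sema3d and Sema3e, all over 100 kb, had no inner H3K27ac peak in either control list. Over the 33 guidance genes of at least 100 kb the median density of inner H3K27ac peaks was 0.953, 1.13, 1.24 and 2.97 per 100 kb, against 1.49, 1.37, 1.88 and 2.64 over all long genes, so it was lower in 3 lists and higher in the knockdown ethanol list. For H3K9ac the median was 0.511, 0.257, 0.413 and 0.53 against 0.254, 0, 0.25 and 0.391, higher in every list. Pooled over the same long genes the direction differed. Pooled H3K9ac density was 0.598, 0.37, 0.693 and 0.716 per 100 kb, against 0.776, 0.472, 0.799 and 0.948, lower in every list. Pooled H3K27ac density was 3.13, 2.43, 3.68 and 4.92, against 4.03, 3.65, 4.79 and 5.93, also lower in every list. Sema7a had 15, 5, 12 and 14 inner H3K9ac peaks, the most of a guidance gene in 2 lists. It was level with Slit1 in the others, and in control ethanol with Unc5a too.

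**Figure D3:**
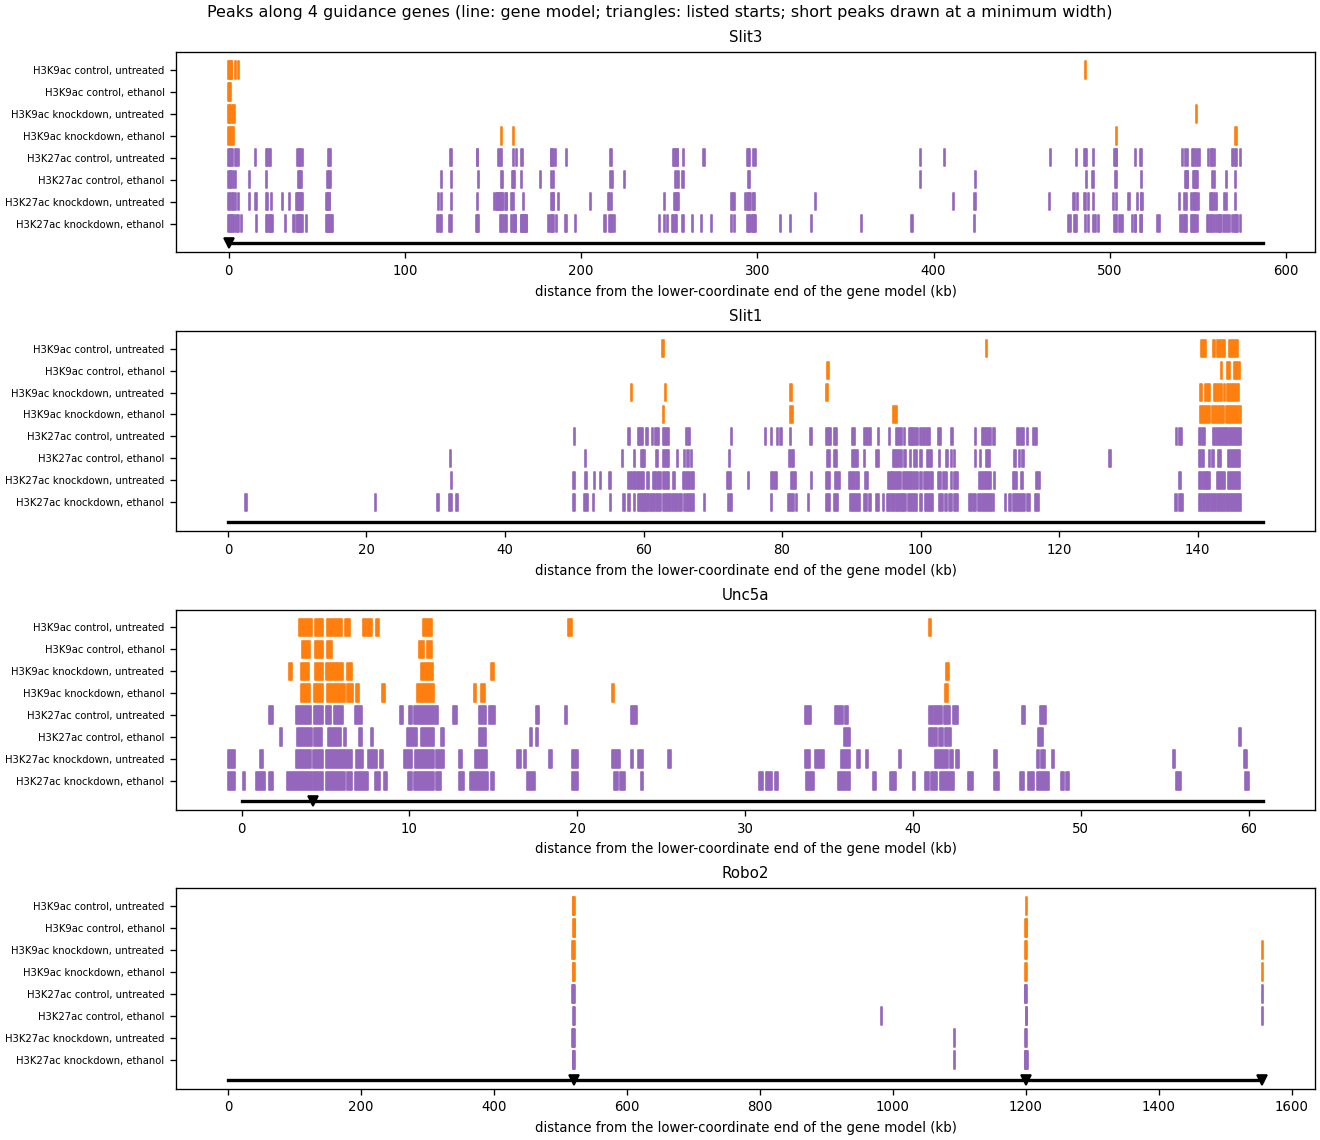
Peaks of H3K9ac (orange) and H3K27ac (purple) in the 4 lists along Slit3, Slit1, Unc5a and Robo2, by distance from the lower-coordinate end of the gene model in kb; the line is the gene model, triangles are listed starts, and short peaks are drawn at a minimum width. H3K27ac fills much of Slit1 and stretches of Slit3, whereas Robo2 holds peaks at its 3 starts and few between them.

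The first comparison asks what ethanol did in mice with the control vector. H3K9ac covered fewer bases after ethanol in 57 of the 62 guidance genes with a peak at an end in either list (91.9%, 95% Wilson interval 82.5 to 96.5%, for counting error only), against 86.0% of all protein-coding genes. The median difference was -404.5 bases, against -278 over all genes. Past a fold of 1.5, 29 guidance genes (46.8%) were lower and 2 (3.23%) higher, where 30.1% of all genes were lower and 1.96% higher. Of these, 7 (11.3%) lost their end peak and 1 (1.61%) gained one, where 6.26% of all genes lost and 1.03% gained one. With all H3K9ac lists cut to the 31042 highest-scoring peaks, 26 of 61 genes (42.6%, against 25.6% of all genes) were lower and 6 (9.84%, against 4.71%) lost their peak. The same direction thus held genome-wide, with a larger share past the fold among guidance genes; that difference in share has no replicate behind it.

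Semaphorin ligands made up 10 of the 29. All 5 class 3 semaphorins with H3K9ac at an end were among them, a grouping noticed after the values were seen: Sema3c had 953 bases before and 476 after ethanol, Sema3d 918 and 585, Sema3e 1371 and 675, Sema3f 707 and 0, and Sema3g 341 and 0. Class 3 semaphorins are the secreted ones. The membrane-bound Sema5b had 1660 and 607 bases, and Sema4d 2103 and 1160, with Secisbp2 inside its windows. Sema4a had 687 and 0. Sema4f, with 359 and 593, went the other way, as did Plxnb1 with 711 and 878, which has Ccdc51 inside its windows. Of the plexins 4 of 8 were lower past the fold (Plxna1, Plxna3, Plxnc1 and Plxnd1) and neither neuropilin was.

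Ephrins and Eph receptors showed the same direction, with smaller folds for most. All 13 Eph receptors with a peak and 7 of 8 ephrins had fewer bases, and 4 and 3 of them passed the fold. Efna2 had 2625 and 1431 bases, the largest difference of any guidance gene in this comparison, and Efnb1, the X-linked ephrin-B ligand, 1188 and 343. Epha1 (336 and 0, with Zyx inside its windows), Epha2 (464 and 0) and Ephb4 (682 and 0) lost their peaks. Ephb4 marks venous endothelium, and Epha2 is best known from epithelia. Epha4 (3226 and 2969) and Ephb1 (1732 and 1679) differed by little.

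Both Slits and both Robos with H3K9ac at an end were lower past the fold. Slit3 had 1646 and 1009 bases, Slit2 539 and 219, Robo1 1388 and 479, and Robo3, the divergent Robo of commissural axons, 580 and 0. The lost Robo3 peak had a score of 13.07 in the authors' list, above 60.7% of peaks there, and the lost Epha1 peak 3.94, above 8.78%. Netrin ligands Ntn1 (350 and 165), Ntn4 (696 and 211) and Ntn5 (456 and 211, with Sec1 inside its windows) were lower, and Ntng2 (0 and 250) gained a peak. Of the netrin receptors, Unc5b, known from endothelial cells, had 1909 and 1039 bases, and Dcc, Unc5c and Unc5d stayed within the fold.

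H3K27ac at the same genes after ethanol was close to the background. Fewer bases were covered in 38 of 69 genes (55.1%, interval 43.4 to 66.2%, against 54.2% of all genes), with a median difference of -30 bases against -24. In all, 5 genes (7.25%) were lower and 5 higher past the fold, where 7.04% and 7.35% of all genes were. Ntng1 lost its end peak, of 33 bases, and Robo4 (269 bases) and Epha8 (318 bases) gained one, where 2.32% of all genes lost and 2.65% gained one. The largest decreases were in Efna3 (3127 and 2353), Epha10 (1829 and 1147) and Efna5 (2126 and 1561). Sema6b (2138 and 3145, with Lrg1 inside its windows), Efna2 (2916 and 3634) and Ntn1 (382 and 863) had the largest increases. Efna2 and Ntn1 therefore had fewer H3K9ac and more H3K27ac bases after ethanol. The 7 genes that lost H3K9ac at an end all kept H3K27ac there, for instance Robo3 with 1144 and 1302 bases and Sema4a with 1849 and 1959. H3K9ac without H3K27ac was rare at gene ends. In untreated control mice 0 guidance genes and 170 of all genes had it, against 13128 of all genes with both marks. The same count was not made for all genes that lost H3K9ac.

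**Figure D4:**
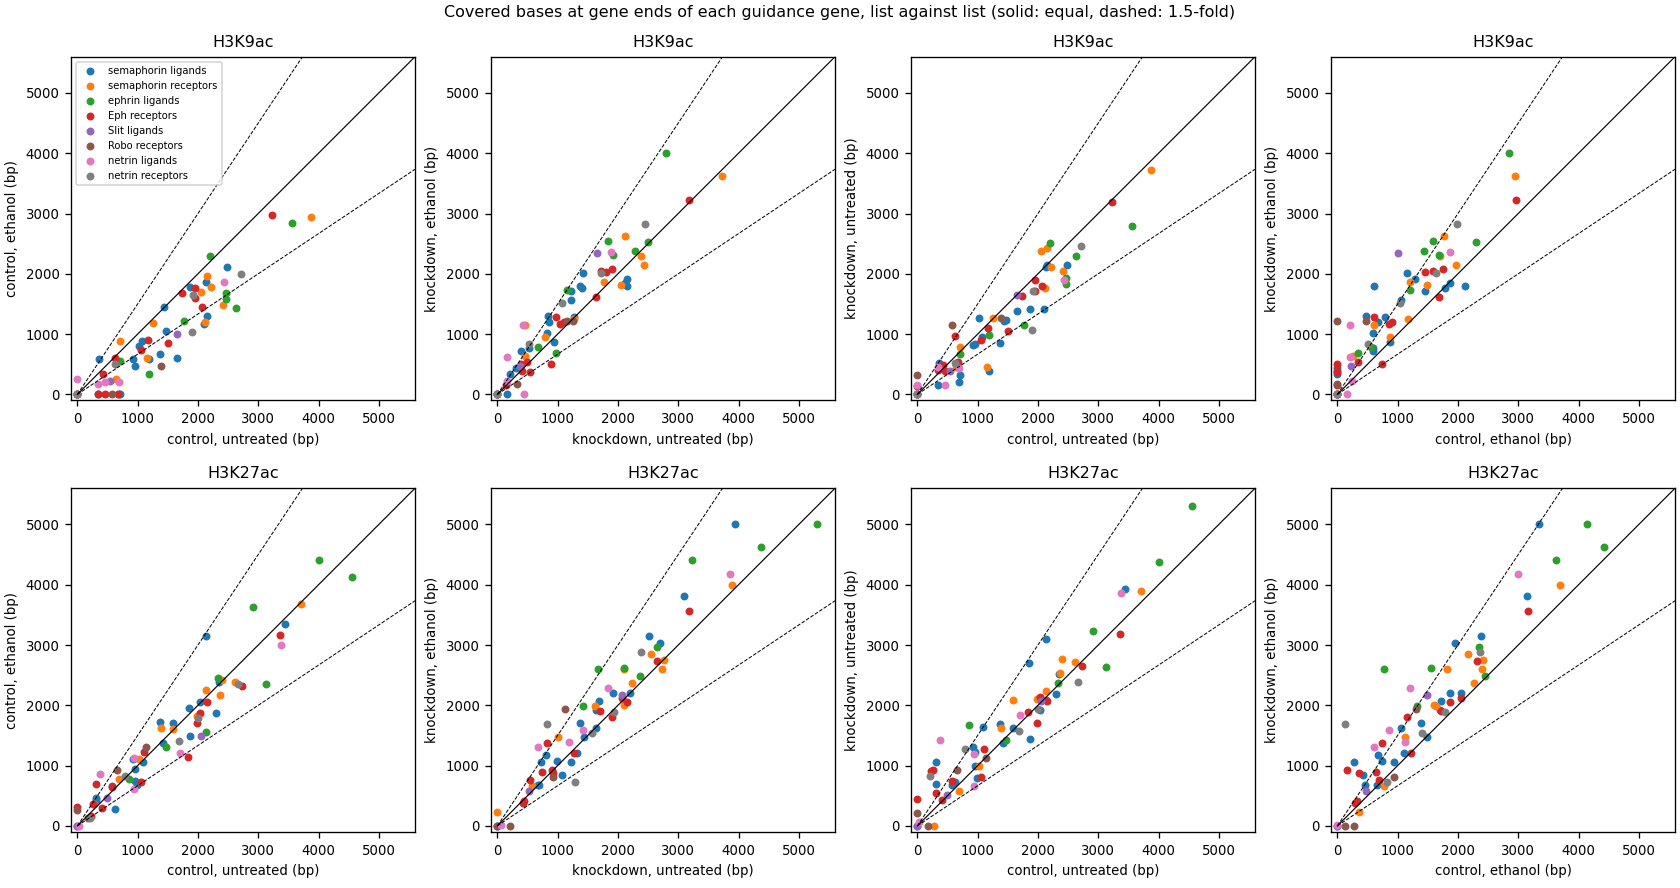
Covered bases at the gene ends of each guidance gene in 1 list (horizontal axis, bp) against another (vertical axis, bp) for the 4 comparisons (columns) of H3K9ac (top) and H3K27ac (bottom); points are genes coloured by family, the solid line marks equal values and dashed lines a fold of 1.5. For H3K9ac, 57 of 62 genes with a peak in either list lie below the line after ethanol in control mice and 18 of 64 in knockdown mice.

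In knockdown mice ethanol went with more H3K9ac rather than less. Fewer bases were covered in 18 of 64 genes (28.1%, interval 18.6 to 40.1%, against 37.4% of all genes), and the median difference was 125.5 bases against 80. In all, 7 genes (10.9%) were higher and 4 (6.25%) lower past the fold, where 12.5% and 4.89% of all genes were. Ntn1 (448 and 0) and Sema3g (158 and 0) lost an end peak and no guidance gene gained one, where 1.91% and 3.91% of all genes did. At full list length these shares are near the background. Efna1 (2797 and 4004), Efnb3 (1833 and 2549) and Ntn4 (432 and 1143) had the largest increases, and Ntn1, Ephb3 (897 and 511) and Sema7a (2154 and 1802) the largest decreases. Of the 62 genes measured in both ethanol comparisons, which use different lists, 40 had fewer bases in control mice and more in knockdown mice (64.5%, against 54.0% of all genes), 17 had fewer in both, 5 more in both and none the reverse. The difference between the 2 responses was not tested. With lists of equal length, ethanol in knockdown mice left 9 of 64 genes lower (14.1%, against 5.75% of all genes) and 10 higher (15.6%, against 11.8%). With those lists 6 (9.38%, against 2.45%) lost an end peak and 5 (7.81%, against 3.5%) gained one.

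Both marks went the same way in knockdown mice. For H3K27ac, 21 of 68 genes had fewer bases after ethanol (30.9%, interval 21.2 to 42.6%, against 30.5%), with a median difference of 150 bases against 122. Past the fold, 6 were higher (8.82%) and 3 lower (4.41%), where 12.3% and 3.08% of all genes were. Robo4 (210 and 0) lost an end peak and Plxnb3 (0 and 229, with Srpk3 inside its windows) gained one, where 1.37% and 3.42% of all genes did. Efna2 (3231 and 4412), Sema7a (3935 and 5005) and Efna4 (1677 and 2597, with Adam15 inside its windows) had the largest increases, and Unc5d (1282 and 732), Efnb3 (5300 and 5001) and Sema3g (1064 and 836) the largest decreases. Efnb3 thus had more H3K9ac and fewer H3K27ac bases after ethanol in these mice.

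**Figure D5:**
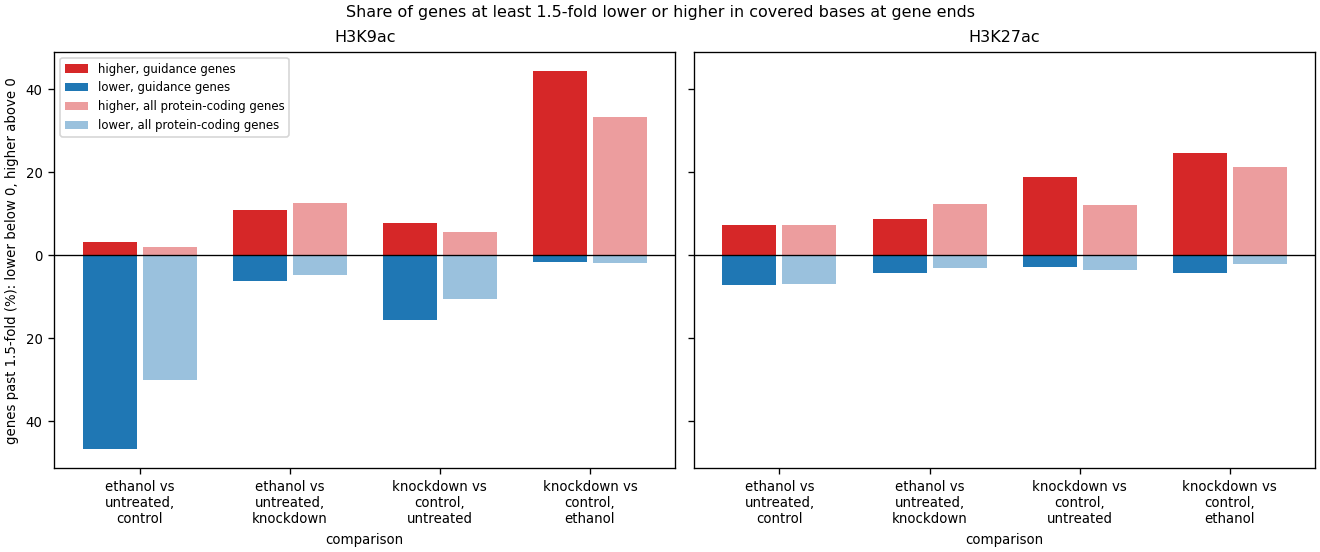
Percent of genes at least 1.5-fold lower (blue, drawn below 0) or higher (red) in covered bases at gene ends, for guidance genes (solid) and all protein-coding genes (pale), in 4 comparisons of H3K9ac (left) and H3K27ac (right). The tallest bars are H3K9ac lower after ethanol in control mice (46.8% and 30.1%) and higher in knockdown than control mice under ethanol (44.4% and 33.3%).

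Without ethanol, the knockdown went with somewhat less H3K9ac at guidance genes. Fewer bases were covered than in control mice in 47 of 64 genes (73.4%, interval 61.5 to 82.7%, against 56.2% of all genes), and the median difference was -153.5 bases against -39. In all, 10 genes (15.6%) were lower and 5 (7.81%) higher past the fold, where 10.6% and 5.62% of all genes were. No guidance gene lost its end peak, and Epha8 (0 and 145), Ntng2 (0 and 154) and Robo2 (0 and 323) gained one, where 3.43% and 2.23% of all genes did. In the 18 semaphorin ligands measured, 15 had fewer bases and 5 passed the fold, among them Sema4g (1188 and 395, with Mrpl43 inside its windows), Sema4a (687 and 213) and Sema3f (707 and 316). Unc5b had 1909 and 1073 bases and Efna1 3554 and 2797, the other large decreases. Robo3 (580 and 1159), Epha3 (628 and 975) and Nrp2 (2046 and 2376) had the largest increases.

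H3K27ac differed in the opposite direction between the untreated groups. Fewer bases were covered in 22 of 69 genes (31.9%, interval 22.1 to 43.6%, against 34.3%), with a median difference of 110 bases against 94. In all, 13 genes (18.8%) were higher and 2 (2.9%) lower past the fold, where 12.1% and 3.67% of all genes were. Plxnb3 (283 and 0) and Robo2 (171 and 0) lost an end peak and Robo4 (0 and 210) and Epha8 (0 and 447) gained one, where 1.59% and 3.77% of all genes did. Ntn1 (382 and 1417), Sema6b (2138 and 3103) and Sema4a (1849 and 2705) had the largest increases. Sema4a and Sema3g (H3K27ac 317 and 1064, H3K9ac 341 and 158) thus had more of one mark and less of the other. Epha2 (229 and 909), Ephb4 (267 and 931) and Unc5a (202 and 822, with Hk3 inside its windows) were among the other genes past the fold. Efna3 (3127 and 2641) and Sema4c (1875 and 1444) had the largest decreases.

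Under ethanol, knockdown mice had more H3K9ac than control mice at nearly all guidance genes. Fewer bases were covered in 8 of 63 genes (12.7%, interval 6.58 to 23.1%, against 11.8% of all genes), and the median difference was 396 bases against 309. In all, 28 genes (44.4%) were higher and 1 (1.59%) lower past the fold, where 33.3% and 1.88% of all genes were. Among these 28, 8 (12.7% of the 63) had an end peak only in the knockdown list, and the 1 lower gene, Ntn1 (165 and 0), had one only in the control list, where 6.95% and 0.953% of all genes did. The 8 were Robo3 (0 and 1214), Epha2 (0 and 502), Sema3f (0 and 442), Epha1 (0 and 396), Ephb4 (0 and 373), Sema4a (0 and 340), Robo2 (0 and 180) and Epha8 (0 and 162). This comparison uses the same control ethanol list as the first one, so the low values of that list enter both. Slit3 (1009 and 2347) and Sema5b (607 and 1797) had the largest increases beside Robo3. Sema7a (2117 and 1802) and Ephb3 (734 and 511) had fewer bases. With lists of equal length 20 of 61 genes were higher (32.8%, against 26.5% of all genes) and 4 lower (6.56%, against 3.57%).

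For H3K27ac under ethanol, 8 of 69 genes had fewer bases in knockdown mice (11.6%, interval 5.99 to 21.2%, against 17.2%), and the median difference was 340 bases against 236. Past the fold 17 (24.6%) were higher and 3 (4.35%) lower, where 21.2% and 2.02% of all genes were. Robo4 (269 and 0) and Robo2 (128 and 0) lost an end peak and Ntng1 (0 and 22) gained one, where 0.909% and 4.8% of all genes did. Efna4 (777 and 2597), Sema7a (3341 and 5005) and Unc5a (128 and 1698) had the largest increases. By role, 34 of 35 ligands and 27 of 34 receptors had more bases. Of the Robo receptors 3 of 4 had fewer: Robo1 had 935 and 803, Robo2 128 and 0, and Robo4 269 and 0. Plxnb3 (362 and 229) was the third gene lower past the fold.

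Peaks were also counted one by one, over the gene body and 2 kb around it. Of 269 H3K9ac peaks at guidance genes in untreated control mice, 130 shared no base with a peak of the control ethanol list (48.3%, interval 42.4 to 54.3%, against 36.0% for peaks at all genes), and 20 of 196 peaks of the ethanol list were gained (10.2% against 10.6%). Under ethanol 149 of 283 knockdown peaks were absent from the control list (52.7%, interval 46.8 to 58.4%, against 41.1%). In knockdown mice ethanol went with 18.2% lost and 31.4% gained, near the 20.3% and 29.7% for peaks at all genes. Of the 126 merged H3K9ac regions at gene ends 72 were in all 4 lists, and 14 were missing from the control ethanol list only, against 1, 0 and 1 missing only from the others. The control ethanol list is the shortest H3K9ac list, with 31042 peaks. Regions were counted for guidance genes only, so no share over all genes stands beside these counts.

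Across the 64 genes with H3K9ac at an end in any list, the control ethanol list was the lowest of the 4 in 44 (68.8%, against 66.4% of all such genes) and untreated control the highest in 29 (45.3%, against 31.1%). For H3K27ac, knockdown ethanol was the highest in 39 of 69 (56.5%, against 57.0%). Intracellular and membrane partners of the guidance receptors, such as collapsin response mediators, guanine nucleotide exchange factors and kinases, were counted in the same way over 58 genes. H3K9ac covered fewer bases after ethanol in 48 of 55 of them in control mice and 22 of 56 in knockdown mice. Of the 55, 12 (21.8%) were lower past the fold in control mice and 1 higher. Their share lies under the 30.1% of all genes, while that of the guidance genes (46.8%) lies over it. The median difference of the partners was larger than that of all genes, -356 bases against -278. Fewer bases were covered in 87.3% of the partners, against 86.0% of all genes. Before ethanol the partners had a median of 1770 bases, against 1342 over all genes. The difference in share was not tested. In knockdown against control mice they had fewer bases in 32 of 56 without ethanol and 5 of 56 with it. Enah and Mical3 had no end peak of either mark in any list.

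Hippocampal tissue mixes cell types, so fewer cells of a type and less acetylation per cell cannot be told apart at any gene above. Markers of excitatory neurons had an H3K9ac peak at an end in 8 to 9 of 10 genes, with means of 1540, 941.5, 1604 and 2052 bases. Astrocyte markers were covered in 5 to 7 of 8 genes, with means of 930.9, 406.8, 843.1 and 885.2, and oligodendrocyte markers in 6 to 8 of 10, with 944.6, 635, 485.7 and 753.7. By H3K9ac, excitatory neuron and astrocyte markers were thus lowest in control mice with ethanol, and oligodendrocyte markers in untreated knockdown mice. H3K27ac means were 2369, 2128, 2585 and 2743 for excitatory neurons, 1050, 1006, 1156 and 1717 for astrocytes and 1348, 1661, 1278 and 1372 for oligodendrocytes, so astrocyte markers were highest in knockdown mice with ethanol and oligodendrocyte markers in control mice with ethanol. Markers of inhibitory neurons had H3K9ac in 2 of 8 genes. For H3K9ac, endothelial and mural markers were covered in 2 to 4 of 8 genes (means of 236.2, 143.1, 116.5 and 225.2), with Cdh5, Pecam1 and Tek at 0, and microglial markers in 0 to 2 of 7, with Cx3cr1, P2ry12, Csf1r, Tmem119 and Trem2 at 0 in every list. Of the better covered lists, Pdgfra and Aqp4 are examples of markers at 0 in every list. Of 8 genes of other tissues, 1 had an H3K9ac end peak, and 1, 1, 1 and 2 had an H3K27ac end peak. The part of cell type content in the results was not tested.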

How the data were processed

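H3K9ac and H3K27ac ChIP-seq of mouse dorsal hippocampus gave 24 ChIP and 12 input samples in 12 groups of 3, by the labels. Libraries were read single-ended at 75 bp, per the labels' protocols. The authors deposited 1 peak list per mark and condition; the labels give the same list for all 3 replicates. MACS2, bedtools, bcl2fastq and STAR 2.5.2a, with GRCm38 (mm10), appear in the submitters' processing notes without an order of steps. The labels name a false discovery rate of 0.001 for the lists. How replicates were combined: not given in the sources used here. The score in the deposited lists is at least 3.0 and was read as a −log10 q-value; it ranks peaks within a list only. Read depth is unknown, so peak numbers and widths can move with it.

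From the lists, covered bases within 2 kb of gene ends (RefSeq, GRCm38.p6), peaks lost or gained (no shared base) and merged regions were computed with Python 3.11.15, numpy 2.4.6, pandas 2.3.3 and scipy 1.17.1; the functions were tested on simulated data. Gene ends were used because the gene table gives no strand; the promoter table lists starts for 61 genes. A gene counts as called past a fold of 1.5, and 0 against any coverage counts as past it. Wilson intervals (95%) cover counting error only. No test was possible with 1 list per group. Alternatives were windows of 1 and 5 kb, the start end alone, the whole gene, a fold of 2, lists of equal length and peaks sharing 50% of their bases; the listed starts and leaving out the 23 genes with a neighbour in the windows were chosen after seeing the data. Named are, in each comparison, the genes that lost or gained an end peak and the 3 with the largest difference in each direction, plus family leaders, genes without peaks and genes of a group described. The genes and lists were chosen with earlier results of these data known. Input samples and signal tracks were not analysed here. Ntn1, Plxna1, Plxna4, Unc5d, Sema3b, Sema3f, Sema6a, Efnb3, Slit1 and Dcc were the genes without a listed start.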

Additional observations from a re-analysis of the deposited data

Results flagged for a closer look

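The differences with ethanol in control-vector and knockdown mice had opposite signs over the guidance genes for both marks. For H3K9ac the median difference in covered bases, ethanol minus untreated, was -404.5 in control mice and 125.5 in knockdown mice. For H3K27ac it was -30.0 and 150.0. With 1 list per condition the difference between the 2 vectors was not tested, and all protein-coding genes had the same signs, with H3K9ac medians of -278 and 80 and H3K27ac medians of -24 and 122.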

How the results depend on the processing

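Of 246 alternative values, 164 kept to the reported value within its interval or within 1.5 times, and 82 moved further. A reversal was scored only for shares of genes with fewer bases whose interval excluded 50%, and 0 of these reversed. Gene counts and shares of peaks could not be scored as reversed. Counts of genes lower or higher, and of end peaks lost or gained, refer to guidance genes at gene ends unless whole genes are named. Apart from lists of equal length, the alternatives were not counted over all genes. Their counts therefore have no background beside them and describe guidance genes only. With a fold of 2, H3K9ac was lower in 17 and higher in 1 after ethanol in control mice, lower in 2 and higher in 3 after ethanol in knockdown mice, lower in 6 and higher in 3 in untreated knockdown against control mice, and higher in 18 under ethanol. H3K27ac in the same order was lower in 2, higher in 2, higher in 8 and higher in 7. A stricter fold calls fewer genes by construction.

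When a shared peak had to have 50% of its bases in common, H3K9ac peaks were 63.2% lost and 18.4% gained with ethanol in control mice, 27.6% and 43.1% in knockdown mice, 37.2% lost between untreated groups and 66.4% gained under ethanol. H3K27ac gave 54.4% and 44.4%, 35.4% and 55.0%, 40.6% and 57.8%, and 26.3% and 69.8% in the same 4 comparisons. This rule too can only add lost and gained peaks.

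Lists of equal length bear on the unequal lengths of the lists. For H3K9ac they gave 42.2% of peaks lost with ethanol in control mice. In knockdown mice 6 end peaks were lost (9.38%, against 2.45% of all genes), 5 gained (7.81%, against 3.5%) and 9 genes lower (14.1%, against 5.75%). Between untreated groups 3 end peaks were lost (4.84%, against 3.83% of all genes), 2 were gained (3.23%, against 2.19%) and 19.3% of peaks were gained. At full list length 0 end peaks were lost and 3 gained there. Under ethanol 3 end peaks were lost (4.92%, against 2.18% of all genes), 4 genes were lower (6.56%, against 3.57%) and 36.8% of peaks were gained in knockdown mice. For H3K27ac with ethanol in knockdown mice 0 end peaks were lost (against 1.91% of all genes), 32.1% of peaks were lost and 34.5% gained. Untreated groups had 1 end peak lost, 1 gained and 1 gene lower (1.49% each, against 2.12%, 3.04% and 4.74% of all genes). Under ethanol 25.6% of peaks were lost and 44.4% gained. The cause of these moves was not tested beyond the change of list length.

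A window of 1 kb gave for H3K9ac 1 end peak gained with ethanol in knockdown mice, 1 lost between untreated groups and 3 genes lower in knockdown mice under ethanol, and for H3K27ac with ethanol in control mice 0 lost and 3 genes lower. At 5 kb, ethanol in control mice left 96.9% of genes with fewer H3K9ac bases, 0 end peaks gained and 1 gene higher, and 67.1% with fewer H3K27ac bases and 0 lost. H3K27ac with ethanol in knockdown mice had 17.4% fewer, 0 lost and 1 lower, and knockdown under ethanol 1 lost and 0 gained. With the start end alone, H3K9ac was higher in 1 gene with ethanol in control mice and in 3 between untreated groups, and lower in 0 in knockdown mice under ethanol. H3K27ac had 18.3% fewer and 1 lower with ethanol in knockdown mice, 8 higher between untreated groups and 1 lower under ethanol.

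Over whole genes H3K9ac was lower in 2 with ethanol in knockdown mice and higher in 3 between untreated groups, and under ethanol 5.8% had fewer bases, 2 were lower and 44 higher in knockdown mice. H3K27ac was lower in 9 and higher in 3 with ethanol in control mice, had 18.3% fewer and 1 lower in knockdown mice, 19.7% fewer and 1 lower between untreated groups, and 0 lower and 40 higher under ethanol. No share over all genes stands beside these whole-gene counts. At gene ends 33.3% (H3K9ac) and 21.2% (H3K27ac) of all genes were already higher in knockdown mice under ethanol. The cause of the whole-gene values was not tested. Without the 23 genes that have a neighbour in their windows, an alternative chosen after seeing the data, fewer genes were counted: H3K9ac was lower in 19 of 43 (44.2%) with ethanol in control mice, and H3K27ac lower in 3 and higher in 3 there, higher in 3 with ethanol in knockdown mice and lower in 1 between untreated groups. No paired analysis was possible because 1 list stands for the 3 replicates of a condition, and for the same reason no replicate could be left out. Read depth is unknown, so its effect on peak number was not tested.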
